A study of Mus musculus with 5 samples.

Results

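The genes described here are 41 that mark white fat cells or govern the storage and release of their fat, taken by symbol from a fixed list among the 22609 genes of the deposited expression table. All 41 were present, and all 41 reached a mean of 1 RPKM (reads scaled to gene length and to the mapped reads of the library) over the 5 libraries, the minimum used here. Otop1 reached it through the wild-type column and Plin5 through the Nfib-null column. RNA had been sequenced from whole mammary glands of outbred mice, without lymph nodes, taken less than 12 hours after the mother had given birth. There were 2 libraries from wild-type mice and 3 described as Nfib-null, a genotype in which Nfib, the gene of the transcription factor nuclear factor I/B, is disrupted. The labels do not say in which cells the gene was deleted, nor by which allele or Cre line, and give no age of the mothers. They do not say whether the libraries came from separate animals.

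For each gene the table gives 1 value for each genotype. One column carries the name of the wild-type libraries. The other, headed NfibFF-WC, matches no library name, was taken as the Nfib-null group because it is the remaining group, and is called Nfib-null glands below. With 1 value a group there is no spread between replicates, so no test, standard deviation or standard error could be computed, and every difference below is a description of these 2 columns. Differences are of log2(RPKM + 1), with wild type subtracted from Nfib-null, after each column was divided by a factor that sets the median log2 ratio of all genes to 0. A difference of 2-fold, or 1 on the log2 scale, is the limit from which higher or lower is written. RPKM values are quoted as deposited, before that scaling, with the Nfib-null value first (“677 against 112 RPKM”). Nfib itself was at 55.3 RPKM in Nfib-null and 33.7 RPKM in wild-type glands, a log2 difference of 0.30 that became −0.32 when the columns were scaled to luminal epithelial genes. Whole-gene values can hold reads of undeleted exons or of cells with the intact gene, so they say nothing about which column is which. The smallest steps between low values put the depth at about 14900000 and 17700000 reads in the 2 wild-type libraries and about 33000000, 27200000 and, less clearly, 22800000 in the 3 Nfib-null ones. The range searched was preset separately for each column, so these depths and the contrast between the columns are rough. Depth limits 2 of the 41 genes: about 31.5 wild-type reads lay behind Plin5 and about 28.4 behind Cox8b, and the next lowest was Otop1 in Nfib-null glands with about 220.5.

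White adipocytes keep triglyceride in a single large droplet and secrete hormones such as leptin and adiponectin. The nuclear receptor PPAR gamma and the CCAAT/enhancer-binding proteins, among them C/EBP alpha, install and hold this programme. On adrenergic stimulation adipose triglyceride lipase, hormone-sensitive lipase and monoglyceride lipase release the fatty acids of a triglyceride one after another, while insulin restrains them. In the mammary gland the epithelium grows into a pad of white fat, whose cells lose lipid and become inconspicuous as milk secretion begins and fill again when it ends.

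Promoter windows (250 bases before to 50 bases after the annotated start of transcription, from RefSeq on GRCm38.p6) were matched by symbol for 31 of the 41 genes, with 41 windows between them. They were searched on both strands for 4 motifs: the C/EBP letters TTGCNNAA, the STAT letters TTCNNNGAA, the NFI letters TTGGCA and the nuclear receptor letters AGGTCA, which PPAR gamma reads as a repeat. In all, 2 pairs of matches to different motifs overlapped in the windows of the 41 genes. The C/EBP letters were in windows of 6 of the 31 genes (Cav2, Cidec, Lep, Mest, Plin1 and Pparg), against 10.1% of the 8850 tested genes with a window. Of the 19 genes higher in Nfib-null glands with a window, 4 held them, and 1 held each of the other 3 motifs. Of the 3 lower genes with a window, 1 held the nuclear receptor letters and 0 held the others. The NFI letters were in windows of 3 (Cav2, Cox8b and Pparg, against 13.5%), and the STAT letters in 3 (Adig, Agt and Lipe, against 8.38%). The nuclear receptor letters were in 4 (Abhd5, Adig, Plin5 and Pparg, against 14.9%). Of all 32851 windows in the table, 10.8% held the C/EBP letters. A match is a run of letters and not evidence of binding. The windows of the 4 higher genes with a C/EBP match are printed to show where those letters lie. That of G0s2 is printed because G0s2 had the lowest log2 difference of the 41 genes (−2.86). Its window holds none of the 4 motifs, as is so for every matched gene not named above for a motif. These 4 genes were picked for being higher, and of the other 2 genes with the C/EBP letters neither Cav2 (0.93) nor Pparg (0.73) passed 2-fold. For genes with several annotated starts the window with the match is shown. Each reads 5′ to 3′ along the gene, and capitals mark the C/EBP letters.
Cidec, chr6:113434715-113435014, minus strand: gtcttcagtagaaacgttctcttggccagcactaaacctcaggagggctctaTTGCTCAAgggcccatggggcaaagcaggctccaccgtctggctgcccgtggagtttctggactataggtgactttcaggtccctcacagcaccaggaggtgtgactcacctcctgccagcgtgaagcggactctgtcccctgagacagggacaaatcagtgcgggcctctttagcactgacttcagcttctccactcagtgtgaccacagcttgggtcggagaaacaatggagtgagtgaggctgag
Lep, chr6:29059971-29060270, plus strand: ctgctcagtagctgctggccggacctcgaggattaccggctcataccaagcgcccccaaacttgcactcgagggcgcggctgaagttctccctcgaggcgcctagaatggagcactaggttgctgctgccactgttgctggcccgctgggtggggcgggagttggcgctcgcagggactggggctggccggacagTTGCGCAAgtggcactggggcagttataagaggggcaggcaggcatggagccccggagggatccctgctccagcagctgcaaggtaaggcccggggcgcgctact
Plin1, chr7:79732727-79733026, minus strand: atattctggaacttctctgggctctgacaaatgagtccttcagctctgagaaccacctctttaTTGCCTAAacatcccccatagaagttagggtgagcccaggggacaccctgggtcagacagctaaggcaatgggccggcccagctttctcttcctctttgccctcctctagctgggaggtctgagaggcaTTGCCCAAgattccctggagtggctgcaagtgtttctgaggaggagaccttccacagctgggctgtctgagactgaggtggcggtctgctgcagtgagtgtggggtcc
Mest, chr6:30733256-30733555, plus strand: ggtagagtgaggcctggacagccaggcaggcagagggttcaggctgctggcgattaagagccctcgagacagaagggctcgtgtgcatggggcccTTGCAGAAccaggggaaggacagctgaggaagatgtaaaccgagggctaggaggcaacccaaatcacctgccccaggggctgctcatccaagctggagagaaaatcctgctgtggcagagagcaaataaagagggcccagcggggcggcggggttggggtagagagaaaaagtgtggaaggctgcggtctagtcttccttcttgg
G0s2, chr1:193273139-193273438, minus strand: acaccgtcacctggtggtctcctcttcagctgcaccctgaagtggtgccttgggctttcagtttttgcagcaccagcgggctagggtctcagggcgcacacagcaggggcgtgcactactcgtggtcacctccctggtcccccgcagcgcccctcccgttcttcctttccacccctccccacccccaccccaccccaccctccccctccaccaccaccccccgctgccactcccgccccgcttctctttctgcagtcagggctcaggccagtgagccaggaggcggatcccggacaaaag
Counted from the annotated start, the match begins at base −55 in Lep, just upstream of its TATA-like run ttataa, at −187 and −58 in Plin1, at −198 in Cidec and at −155 in Mest.

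Most of the 41 genes had larger scaled RPKM in Nfib-null than in wild-type glands. Of them, 23 were at least 2-fold higher, or 56.1%, against 6.95% of the 12511 genes above the minimum. Another 4 genes, Abhd5, Gyk, Otop1 and G0s2, were at least 2-fold lower, or 9.76%, against 5.97% of all genes. The remaining 14 lay within 2-fold, 8 of them above 0 and 6 below. With a limit of 1.5-fold 29 were higher and 7 lower (17.1% and 14.7% of all genes), and with one of 4-fold 6 and 2 (0.727% and 1.23%). The median log2 difference of the 41 was 1.02 and that of all genes 0.00. Plin5 (1.02), Mest (1.01) and Acvr1c (1.01) lay just past the 2-fold limit and were counted as higher, and Cebpb (0.95) lay just short of it. The summed RPKM of the 41, as deposited, was 12672 in Nfib-null glands and 4061 in the wild type. Of these sums Fabp4 made up 5819 and 1183 RPKM and Cfd 2447 and 579 RPKM. RPKM is a share of a library's reads and not an amount of mRNA. In bulk tissue a smaller share of other RNA, more cells of a type and more RNA per cell cannot be told apart.

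**Figure D1:**
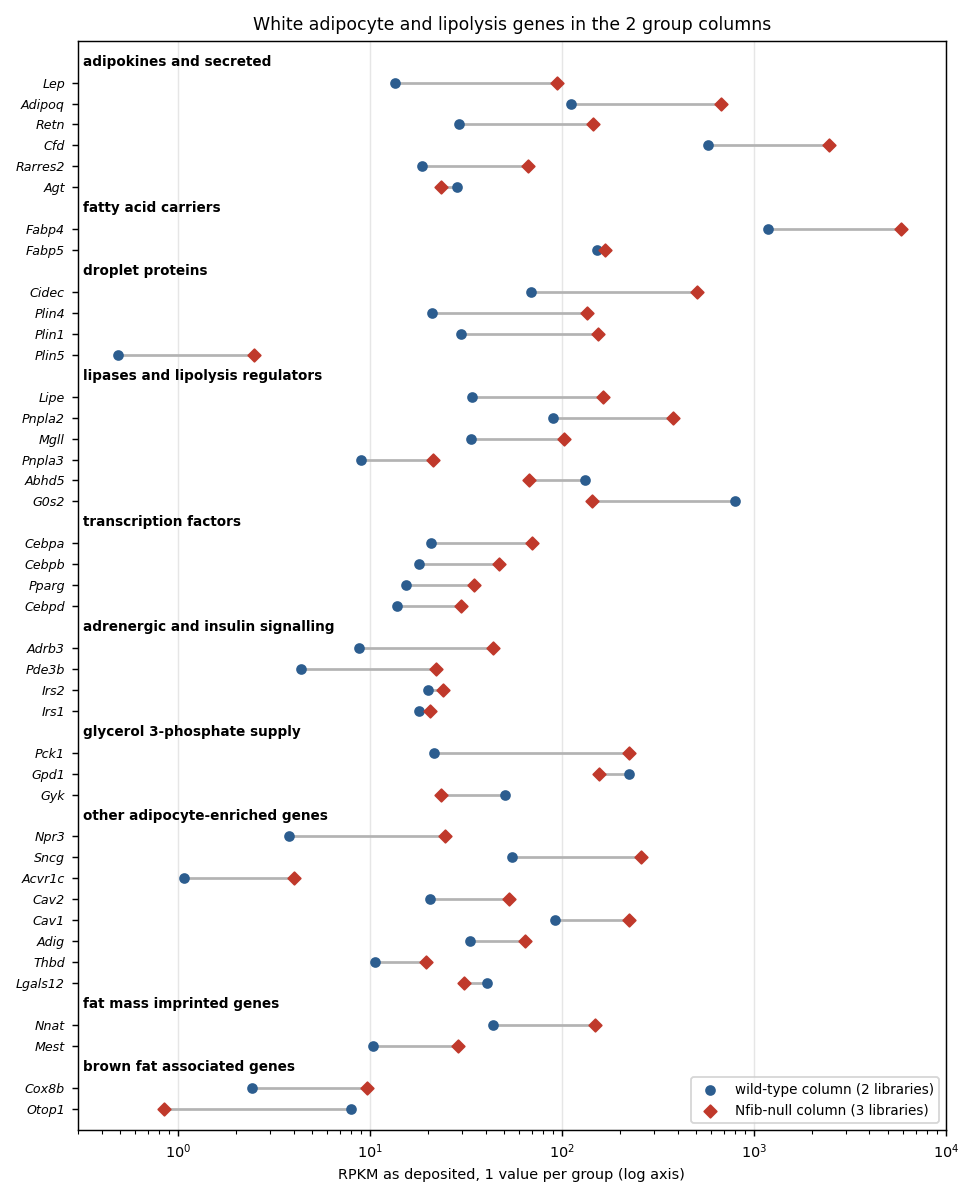
RPKM of each of the 41 genes in the wild-type column (circles, 2 libraries) and the Nfib-null column (diamonds, 3 libraries) on a log axis, grouped by role, with 1 deposited value per gene and group and no error bars because no library values were used. Most diamonds lie to the right of their circles, and those of Agt, Abhd5, G0s2, Gpd1, Gyk, Lgals12 and Otop1 lie to the left.

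Among the secreted products 5 of 6 were higher. Leptin (Lep), the hormone that reports fat stores to the brain, was at 94.7 RPKM in Nfib-null and 13.5 RPKM in wild-type glands (log2 2.32). Adiponectin (Adipoq), an insulin-sensitising hormone made almost only by fat cells, stood at 677 against 112 RPKM (2.18) and ranked 81st against 423rd of the 12511 genes. Resistin (Retn) stood at 146 against 29.0 RPKM (1.89). The proportions of these 3 hormones differed little: the ratio of Lep to Adipoq was 0.140 in the Nfib-null and 0.121 in the wild-type column, and that of Retn to Adipoq 0.215 and 0.259.

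Complement factor D or adipsin (Cfd), a serine protease of the alternative complement pathway, was the most abundant of the secreted products at 2447 against 579 RPKM (1.67). Chemerin (Rarres2), a chemoattractant and adipokine, stood at 66.3 against 18.7 RPKM (1.37) and came within 2-fold when the columns were scaled to luminal genes (0.76). Angiotensinogen (Agt), the precursor of angiotensin that fat and liver both secrete, was the exception. It stood at 23.6 against 28.4 RPKM (−0.65), below 0 under each of the 5 other scalings tried, and its ratio to Adipoq was 0.0348 in Nfib-null glands against 0.253 in the wild type.

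The fatty acid carriers differed from each other. Fabp4, the carrier that fills the cytosol of fat cells, stood at 5819 against 1183 RPKM (1.89), ranked 9th against 25th, and alone made up 45.9% of the summed RPKM of the 41 genes in Nfib-null glands and 29.1% in the wild type. Its close relative Fabp5 stood at 168 against 152 RPKM (−0.27), within 2-fold and with a sign that turned to 0.10 after quantile normalization and 0.14 as deposited. The ratio of Fabp4 to Fabp5 was 34.7 in Nfib-null glands and 7.79 in the wild type. Which cells held either mRNA was not tested.

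All 4 droplet proteins were higher. Cidec, which fuses small droplets into the large one of white fat, stood at 503 against 69.3 RPKM (2.43). Perilipin 4 (Plin4), a coat protein of nascent droplets, stood at 135 against 21.1 RPKM (2.22), and perilipin 1 (Plin1), the coat protein that gates lipase access, at 153 against 29.7 RPKM (1.92). Perilipin 5 (Plin5), the droplet protein of oxidative tissues, was scarce at 2.49 against 0.487 RPKM (1.02), and its call was lost with quantile normalization (0.90), with luminal scaling (0.69) and with a pseudocount of 5 (0.36). Within the group Cidec to Plin1 was 3.28 against 2.33, Plin4 to Plin1 0.880 against 0.709, and Plin5 to Plin1 0.0163 against 0.0164.

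The genes listed as lipases and lipolysis regulators split between the lipases on one side and G0s2 and Abhd5, which regulate the first lipase, on the other. Pnpla2, adipose triglyceride lipase, which removes the first fatty acid, was at 378 RPKM in Nfib-null and 89.5 RPKM in wild-type glands (1.66). Lipe, hormone-sensitive lipase, stood at 164 against 33.9 RPKM (1.84), and Mgll, monoglyceride lipase, at 103 against 33.4 RPKM (1.19, and 0.57 with luminal scaling). Pnpla3, a relative of Pnpla2 with a different tissue role, stood at 21.3 against 8.99 RPKM (0.78, and 1.16 as deposited). All 3 lipases of the pathway were thus higher, and between the columns the ratio of Lipe to Pnpla2 differed by 1.15-fold and that of Mgll to Pnpla2 by 1.38-fold.

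Opposite to the lipases stood G0s2 and Abhd5, the regulators of Pnpla2 listed with them. G0s2, a small protein that binds Pnpla2 and inhibits it, was at 144 RPKM in Nfib-null and 793 RPKM in wild-type glands (−2.86), with ranks of 359 and 50 among the 12511 genes. Abhd5, also known as CGI-58, the coactivator that Pnpla2 needs for full activity, stood at 67.5 against 132 RPKM (−1.36, and −0.95, within 2-fold, as deposited). In the wild-type column G0s2 mRNA was 8.85 times that of Pnpla2 per length, and in Nfib-null glands it was 0.381 times, a change of the ratio by 23.2-fold. The ratio of Abhd5 to Pnpla2 went from 1.47 in the wild type to 0.179 in Nfib-null glands, or 8.24-fold. For comparison, Lipe to Pnpla2 was 0.435 in Nfib-null glands and 0.378 in the wild type. A ratio of genes within a column does not depend on how the column is scaled, although a rank-based normalization would alter it. In whole glands the mRNAs of a ratio can come from different cell types, so the ratio does not give the balance within fat cells. Which cells held G0s2 and Abhd5 mRNA was not tested. These pairs were chosen after the values had been seen.

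**Figure D2:**
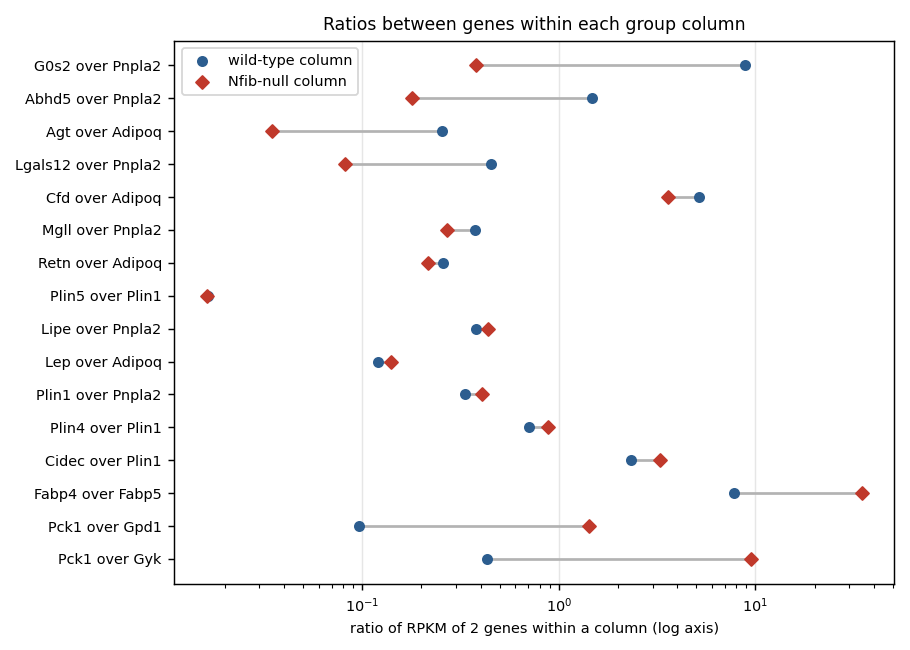
Ratios of the RPKM of pairs of genes within the wild-type column (circles) and within the Nfib-null column (diamonds) on a log axis, ordered by the change between the columns. The ratios of Lipe, Mgll and Plin1 to Pnpla2, of Cidec, Plin4 and Plin5 to Plin1, and of Lep, Retn and Cfd to Adipoq changed by less than 1.5-fold, whereas G0s2 to Pnpla2 was 8.85 against 0.381 and Pck1 to Gyk 0.431 against 9.51 (wild type against Nfib-null).

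The enzymes that supply glycerol 3-phosphate, the backbone of triglyceride, did not move together either. Pck1, the cytosolic phosphoenolpyruvate carboxykinase that starts glyceroneogenesis in fat cells, had the highest log2 difference of the 41 genes at 223 against 21.6 RPKM (2.90), and ranked 232nd against 2755th. Gyk, glycerol kinase, which makes the same product from free glycerol and is scarce in white fat, was lower at 23.4 against 50.2 RPKM (−1.47). Gpd1, the dehydrogenase that makes it from glycolytic dihydroxyacetone phosphate, stood at 157 against 224 RPKM (−0.92, and −1.54 with luminal scaling). The ratio of Pck1 to Gpd1 was 1.42 in Nfib-null glands and 0.0968 in the wild type.

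Transcription factors of fat cells differed less (median 0.84) than the droplet proteins (2.07) or the secreted products (1.78). Cebpa, the factor of terminal fat cell differentiation, stood at 69.5 against 20.9 RPKM (1.29) and was the only one of 4 past 2-fold, although not with luminal scaling (0.68). Cebpb stood at 47.2 against 17.9 RPKM (0.95) and Cebpd at 29.8 against 13.8 RPKM (0.67), both early factors of the programme that many other cell types make. Pparg, the receptor that commits and maintains fat cells, stood at 34.6 against 15.4 RPKM (0.73). With values as deposited all 4 passed 2-fold, and with luminal scaling none did. The ratio of Pparg to Cebpa was 0.499 in Nfib-null glands and 0.736 in the wild type.

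Of the adrenergic and insulin genes, 2 of 4 were higher. Adrb3, the beta-3 adrenergic receptor through which noradrenaline starts lipolysis in rodent fat, stood at 43.6 against 8.82 RPKM (1.80). Pde3b, the phosphodiesterase by which insulin lowers cyclic AMP and so restrains lipolysis, stood at 22.2 against 4.40 RPKM (1.74). The insulin receptor substrates, used by many cell types, lay within 2-fold and close to 0: Irs1 stood at 20.6 against 18.1 RPKM (−0.21) and Irs2 at 24.1 against 20.04 RPKM (−0.14), and the sign of both was positive as deposited (0.18 and 0.25).

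Further genes enriched in fat cells covered a wide range, with 3 of 8 higher and 0 lower. Npr3, the clearance receptor that removes natriuretic peptides, stood at 24.6 against 3.78 RPKM (2.06). Sncg, gamma-synuclein, stood at 259 against 54.7 RPKM (1.81), and Acvr1c, the activin-type receptor ALK7, at 4.03 against 1.07 RPKM (1.01, and 0.88 with quantile normalization). Lgals12, a galectin of fat cell lipid droplets, was the member of this group below 0, at 30.9 against 40.5 RPKM (−0.78, and −1.39 with luminal scaling).

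Caveolins coat the membrane pits that are dense in fat cells and also present in endothelium and myoepithelium. Cav1 stood at 223 against 92.2 RPKM (0.86) and Cav2 at 52.9 against 20.4 RPKM (0.93), both within 2-fold here and past it as deposited (1.26 and 1.33). Adig, the small adipogenic protein adipogenin, stood at 64.2 against 33.1 RPKM (0.53), and Thbd, thrombomodulin, the anticoagulant receptor of vessels, at 19.6 against 10.7 RPKM (0.43). The sign of these 2 genes turned with luminal scaling (−0.08 and −0.15).

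The imprinted genes linked to fat mass were both higher: Nnat, neuronatin, stood at 149 against 43.5 RPKM (1.35) and Mest at 28.8 against 10.3 RPKM (1.01), and neither passed 2-fold with luminal scaling. The pair associated with brown fat had differences of opposite sign, except with scaling to other white adipocyte genes, where both were below 0. Cox8b, a cytochrome oxidase subunit of muscle and brown fat, stood at 9.64 against 2.42 RPKM (1.30), on few wild-type reads, and came within 2-fold with luminal scaling (0.79) and with a pseudocount of 5 (0.78). Otop1, the proton channel otopetrin 1, stood at 0.846 against 7.98 RPKM (−2.56). It is near the floor in Nfib-null glands, and its difference was −3.48 with a pseudocount of 0.1 and −1.31 with one of 5. With a minimum of 5 RPKM it was not tested, and 3 of 38 genes were lower.

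Which genes passed 2-fold depended on what the columns were scaled to. With values as deposited 29 of the 41 were higher and 3 lower (14.4% and 2.95% of all genes), and the all-gene median moved to 0.35. With columns brought to equal sums, leaving out the 20 genes of highest mean, the counts were 26 and 4 (9.38% and 4.38%, all-gene median 0.15), and quantile normalization 24 and 4 (6.75% and 5.48%). Scaling to a list of 18 luminal epithelial genes left 15 higher and 7 lower (2.11% and 20.7%, all-gene median −0.54). Under median-ratio scaling and all 4 of these alternatives 15 genes were higher (Pck1, Cidec, Lep, Plin4, Adipoq, Npr3, Plin1, Retn, Fabp4, Lipe, Sncg, Adrb3, Pde3b, Cfd and Pnpla2) and 3 were lower (Gyk, Otop1 and G0s2). Otop1 had reached the minimum only through the wild-type column, where it was high.

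Scaling the columns to 10 other white adipocyte genes, none of them among the 41, asks how each gene stood relative to fat cell RNA. These 10 comprised Rbp4 (2.42, the highest) and Acsl1 (−1.32, the lowest), with 9 higher, 1 lower and a median of 1.97, and their sum was 845 against 738 RPKM, of which Acsl1 made up 343 and 645. On this scale, by its construction, the median of all genes shifted to −1.85. Of the 41 genes 0 were then higher and 19 lower (0.104% and 85.5% of all genes), 22 lay within 2-fold, and 6 lay above 0. The fat cell hormones and droplet proteins stayed near 0, with Adipoq at 0.03, Plin4 at 0.11, Lep at 0.23, Plin1 at −0.20 and Cidec at 0.29. Pck1 stood highest at 0.78. Pparg (−1.34), Cebpb (−1.13), Cav1 (−1.29), Irs1 (−2.25), Fabp5 (−2.41), Agt (−2.72), Lgals12 (−2.86), Gpd1 (−3.06), Abhd5 (−3.49), Gyk (−3.54), Otop1 (−3.92) and G0s2 (−5.01) lay more than 2-fold lower on this scale.

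**Figure D3:**
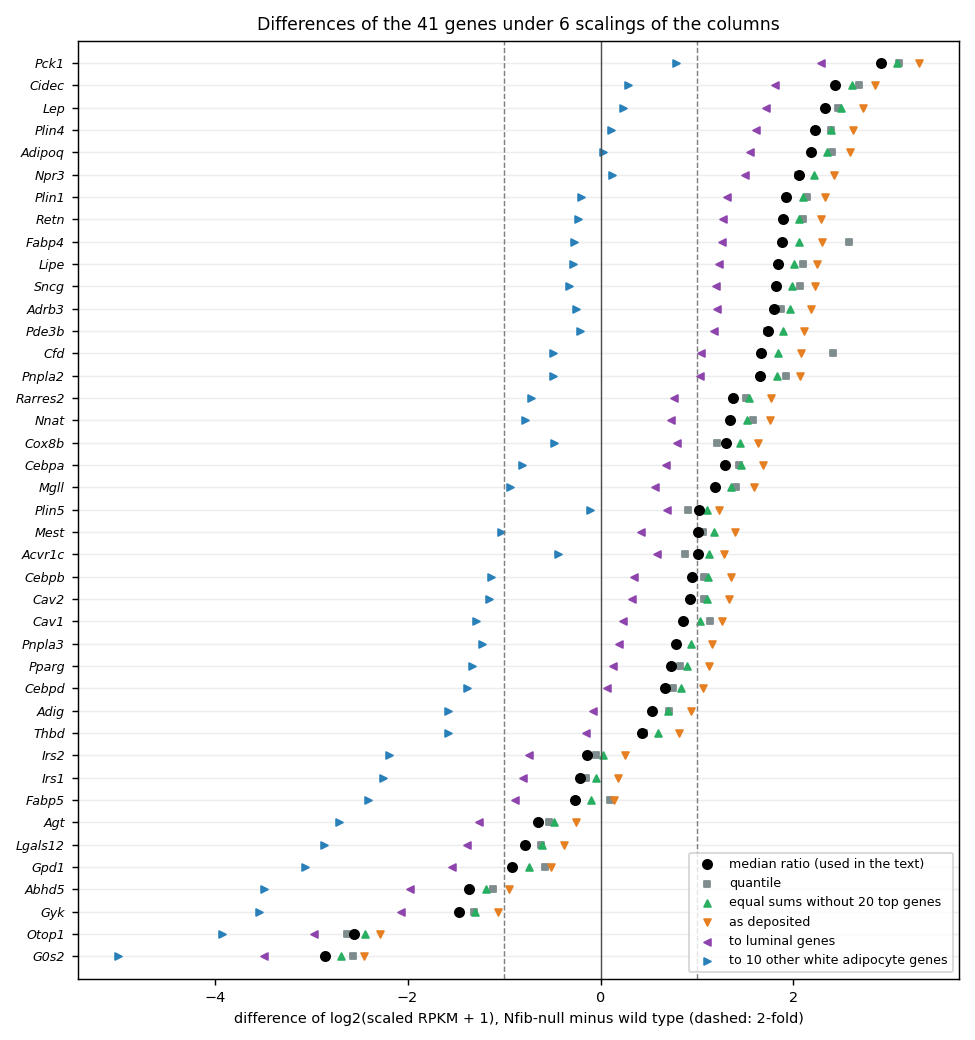
Log2 difference between Nfib-null and wild-type glands (pseudocount 1, positive where Nfib-null is higher) for each of the 41 genes under 6 scalings of the columns, ordered by the median-ratio value (black circles), with dashed lines at 2-fold. The genes from Pck1 down to Pnpla2 lie past 2-fold on the higher side with all scalings except that to other adipocyte genes, which places them between −0.49 and 0.78, and G0s2, Otop1 and Gyk lie past 2-fold on the lower side with all 6.

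Other genes of the same pathways were taken from lists drawn up beside the 41. Of 5 adipokine receptors above the minimum 2 were higher and 0 lower (median 0.65, and 0.03 with luminal scaling), from Cdh13, a receptor that binds adiponectin (24.2 against 16.7 RPKM, 0.12), to Agtr1a, the receptor of the peptide made from Agt (20.1 against 2.81 RPKM, 2.11). Of 12 genes that signal to lipolysis 3 were higher and 0 lower (median 0.38, and −0.11 with luminal scaling). The highest was Niacr1, the antilipolytic nicotinic acid receptor (5.78 against 0.724 RPKM, 1.71). It reached the minimum only through the Nfib-null column, where it was high. The lowest was Adrb1, the beta-1 adrenergic receptor (1.86 against 3.46 RPKM, −0.93). The ratio of Adrb3 to Adrb1 was thus 23.4 in Nfib-null glands and 2.55 in the wild type.

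Of 9 insulin signalling genes 0 were higher and 1 lower, with a median of 0.03 that was −0.05 with quantile normalization and −0.44 with luminal scaling. They ranged from Akt1, a kinase of the growth signal (101 against 194 RPKM, −1.34, and −0.93 as deposited), to Akt2, the kinase that carries the insulin signal to glucose uptake (47.7 against 18.6 RPKM, 0.91, and 1.31 as deposited). Of 14 adipogenic transcription regulators 2 were higher and 1 lower (median 0.38, and −0.17 with luminal scaling), from Klf4 (19.6 against 3.85 RPKM, 1.73) to Srebf1, the activator of lipid synthesis (90.1 against 190 RPKM, −1.48).

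**Figure D4:**
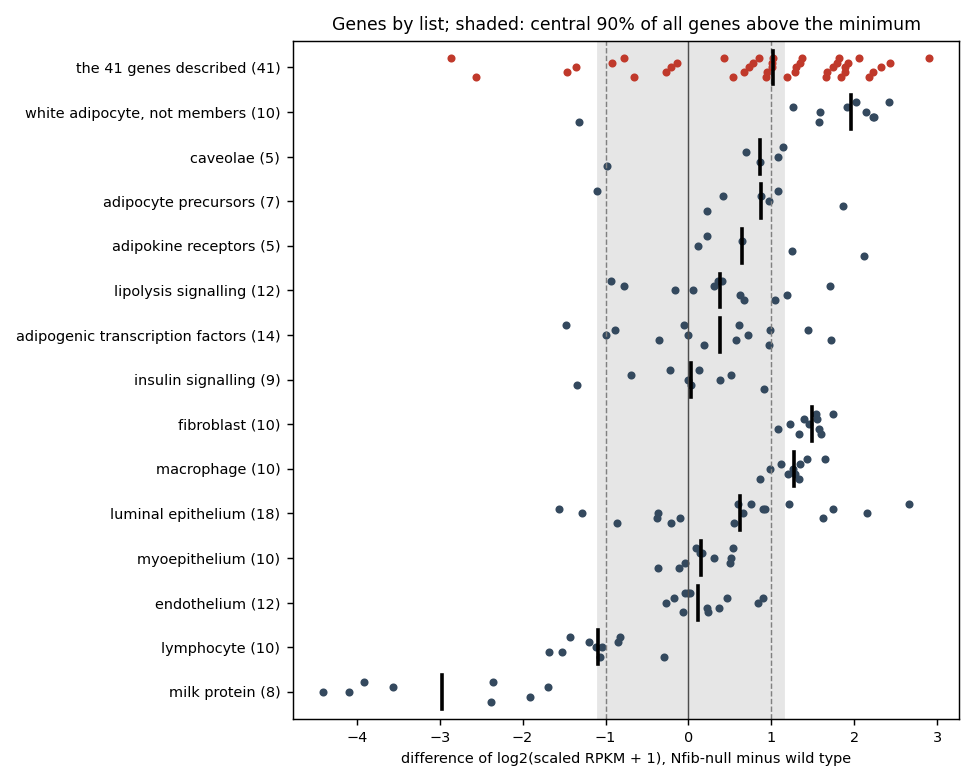
Log2 difference between Nfib-null and wild-type glands (pseudocount 1, positive where Nfib-null is higher) for the 41 genes (top row) and for 14 other lists, with the number of genes above the minimum in brackets, 1 point per gene, vertical bars at the list medians, dashed lines at 2-fold and shading over the central 90% of all genes (−1.09 to 1.16). The 41 genes spread from −2.86 to 2.90 around a median of 1.02, while the 10 other white adipocyte genes have a median of 1.97 and the milk protein genes of −2.97.

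Markers of fibroblasts and macrophages moved with the fat cell genes, and those of luminal, endothelial and myoepithelial cells moved less. The part of any of these cells in the differences above was not tested. All 10 fibroblast genes were higher (median 1.496, sum 1789 against 481 RPKM), as were 8 of 10 macrophage genes (median 1.28, sum 761 against 227 RPKM). With luminal scaling 1 of 10 was higher in each of these lists. Of 18 luminal epithelial genes 5 were higher and 2 lower (median 0.62, sum 2509 against 1865 RPKM), while 0 of 12 endothelial genes (median 0.12, sum 270 against 189 RPKM) and 0 of 10 myoepithelial genes (median 0.15, sum 1342 against 852 RPKM) passed 2-fold. All 8 milk protein genes were lower (median −2.97, and only −0.36 with quantile normalization), and their sum was 143840 against 585437 RPKM. That wild-type sum includes tied values of 102755 RPKM, so the size of the milk gene difference is uncertain. The sum of all genes was 548491 against 947746 RPKM. All these sums are of unscaled values, so they depend on the share that milk protein genes take in each column. No gene of these 6 lists was at 0 in either column.

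Shared sequence limits some of the values. In the GENCODE M21 annotation 18 of the 41 genes overlap an exon of another gene, 17 of them on the opposite strand, and no label says whether strand was used in counting. Of the overlapping genes found in the table under the same name, Tmem189, which shares 312 bases with Cebpb, stood at 30.6 against 47.9 RPKM, and Copg2, which shares 912 bases with Mest, at 22.5 against 16.5 RPKM. Lrrc61, which shares 782 bases with Rarres2, stood at 5.78 against 2.27 RPKM. Those overlapping Lipe and Acvr1c stood at 0.294 against 0.305 RPKM for Lipe and at 0.0218 against 0.0208 RPKM for Acvr1c. The coding genes Spidr (562 bases shared with Cebpd), Gm9747 (2822 with Irs1) and Hdgfl2 (17 with Plin4) were not matched by name. Antisense genes that were not matched by name either share 950 bases with Abhd5 and 480 with Adrb3. The values of Abhd5, Adrb3, Cebpb, Cebpd, Irs1, Mest and Rarres2 may include reads of these neighbours and are uncertain to that extent.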

How the data were processed

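Poly(A) RNA of whole mammary glands was sequenced in 5 libraries. Per the submitters' processing notes, CASAVA and TopHat were used with mm9, and no version is stated. How reads were counted, on which annotation and over which total is not given in the sources used here. The authors deposited RPKM, per the file headers, as 1 value per gene for each of 2 groups. In the wild-type column 8 of 489 genes at 100 RPKM or more shared an exact value with another, against 0 of 544 in the Nfib-null column. None of the 41 genes did. Such ties can come from a rank-based normalization, so wild-type values are approximate.

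A mean of 1 RPKM or more, with group values weighted by 3 and 2 libraries, was required, which kept 12511 of 22609 genes. Columns were divided by median-ratio factors (1.15 for Nfib-null, 0.867 for wild type). A pseudocount of 1 RPKM was added before the log2, which understates the change of low genes. Depth was read from the steps of low values in single-transcript genes of GENCODE M21 (GRCm38), as many steps as libraries. Steps were sought within a range preset for each column, taking a column as the plain mean of its libraries. Scripts used Python 3.11.15, numpy 2.4.6, pandas 2.3.3 and matplotlib 3.10.9, and were tested on simulated data. The members, lists, limits and alternatives were chosen with earlier results of these data known. All 41 members are named. Of each other list at most the genes with the highest and lowest difference are named, besides markers at 0, overlapping genes and Nfib. Scaling, pseudocount, filter and fold limit were varied. No columns were left unmapped. One gene of the insulin signalling list was left out of it and is not reported here.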

Additional observations from a re-analysis of the deposited data

How the results depend on the processing

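No paired analysis was possible because the table holds 1 value per group, and for the same reason no library could be left out and no limma fit was run. By the rough depth estimates, depth limits only Plin5 and Cox8b, and without library values variation between animals is unknown. Of 11 alternatives, the number of genes higher (23) moved by more than 1.5 times with scaling to luminal genes (15), with scaling to other white adipocyte genes (0) and with a 4-fold limit (6). The number lower (4) did so with the same scalings (7 and 19), with a 1.5-fold limit (7) and with a 4-fold limit (2). The median of 1.02 came within 2-fold with luminal scaling (0.59) and a pseudocount of 5 (0.83), and reversed with scaling to other white adipocyte genes (−0.81). That scaling subtracts the change of fat cell genes by construction, and under it 17 genes called higher turned to values below 0: Plin5 (−0.11), Plin1 (−0.20), Pde3b (−0.21), Retn (−0.24), Adrb3 (−0.25), Fabp4 (−0.27), Lipe (−0.29), Sncg (−0.32), Acvr1c (−0.44), Cox8b (−0.48), Cfd (−0.49), Pnpla2 (−0.49), Rarres2 (−0.72), Nnat (−0.78), Cebpa (−0.81), Mgll (−0.94) and Mest (−1.03). No called gene changed sign under any other alternative. With no filter Mest (0.99) and Acvr1c (0.99) came within 2-fold, and with a minimum of 5 RPKM Cebpb (1.01) passed it.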

Other observations

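Lists near the fat cell programme that the results do not cover gave mixed values. Of 7 adipocyte precursor genes above the minimum 2 were higher and 1 lower (median 0.88, and 0.37 with luminal scaling). Ly6a, the stem cell antigen of precursor and endothelial cells, stood at 184 against 37.5 RPKM (Nfib-null against wild type, 1.86), and Cd24a, a surface protein that luminal cells also carry, at 241 against 391 RPKM (−1.11, and −0.70 as deposited). Of 5 other caveola genes 2 were higher and 0 lower (median 0.86). Ptrf, the cavin that shapes caveolae with Cav1, stood at 157 against 53.0 RPKM (1.14), and Pacsin2, a membrane-bending protein, at 20.4 against 31.2 RPKM (−0.98).

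Of 9 listed brown fat genes 4 reached the minimum. Ucp1, the uncoupling protein that defines brown fat, and Elovl3 were listed at 0 in the wild type and stood at 0.139 and 0.237 RPKM in the Nfib-null column. Of those above the minimum, Prdm16 had the highest difference (2.28 against 0.639 RPKM, 0.78) and Cidea the lowest (46.1 against 712 RPKM, −4.33). Prdm16 reached the minimum only through the Nfib-null column. Cidea, a relative of Cidec that milk-secreting cells use, was thus on the opposite side from Cidec. The ratio of the 2 columns for Cox8b, the member of the brown fat pair that was higher, rests on about 28.4 wild-type and 288 Nfib-null reads.

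Lymphocyte genes were the list of another cell type that moved against the fat cell genes without being milk genes, with 0 of 10 higher and 7 lower (median −1.09, sum 14.6 against 32.5 RPKM). The number lower was 3 with values as deposited.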
